A study of Mus musculus with 16 samples.

Results

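The data described here are the expression profiles of untreated wild-type mouse keratinocytes, the epithelial cells of the epidermis, grown in culture. They were taken from 4 arrays of the 16 in the series. All 4 carry the label WT and the strain label FVBN, came from pups 1 day after birth and received no treatment (WT-NT). Cells were kept in keratinocyte media at 37°C with 5% CO2. Per the study's methods each keratinocyte line came from 1 pup, and the Ts1Rhr line of the study, which carries a trisomic segment, had been backcrossed onto FVB/N from another strain. The other arrays hold trisomic (Ts) cells and cells given the phorbol ester TPA, and they were not used. A gene was counted when at least 1 of its probes had a detection p of 0.01 or less, the share of negative control beads that are as bright, on all 4 arrays. This held for 6962 of 25697 probes (27.1%) and for 5190 of 16593 named genes (31.3%). Genes were then ranked by mean signal over background. No test was made, as there is 1 group, and every value below is a description. With 1 array per culture, differences between cultures and between arrays cannot be told apart.

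The epidermis renews itself from a basal layer. Basal cells carry keratins 5 and 14, hold on to the basement membrane through integrins and hemidesmosomes, and depend on the transcription factor p63 (*Trp63*). As cells leave this layer they switch to keratins 1 and 10 and strengthen their desmosomes (spinous layer). They then lay down loricrin, filaggrin, small proline-rich and late cornified envelope proteins, and secrete barrier lipids (granular and cornified layers). In wounds, and in culture, keratinocytes make keratins 6, 16 and 17 instead of 1 and 10. Growth at low calcium is known to hold mouse keratinocytes in a basal state. The calcium level of these cultures is not given in the sources used here.

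A TATA box is the DNA element, found shortly upstream of many tissue-restricted genes, that positions transcription initiation, and housekeeping genes often lack it. The letters TATAAA were looked for, on both strands, in the 50 bases before each annotated RefSeq start (build GRCm38.p6). Of 32851 promoters in the table, 3.50% held them. Among the genes detected here 4272 of 5190 had an entry, with 5520 promoters, of which 1.99% held the motif. For the 100 brightest genes it was 7 of 100 promoters (77 genes). In the detected ribosomal protein genes it was 1 of 58 promoters (48 genes). In the detected genes of the spinous and cornified lists it was 11 of 33 promoters (29 genes, 33.3%). Several of these genes belong to the *Sprr* and *Lce* families, which hold near-identical copies, so their promoters may not be independent counts. With the shorter motif ATAAA, which contains all matches to the first, the shares were 10.2%, 4.64%, 10 of 100, 1 of 58 and 57.6%. The 100 bases before the start are shown for 4 detected differentiation genes that hold TATAAA, for *Krt5*, which holds only the shorter motif, and for the ribosomal protein gene *Rpl41*, which holds neither. Capitals mark the match.
Krtdap (chr7:30787805-30787904, + strand): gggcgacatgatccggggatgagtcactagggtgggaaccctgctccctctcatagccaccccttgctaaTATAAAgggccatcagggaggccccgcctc
Sprr1b (chr3:92438780-92438879, - strand): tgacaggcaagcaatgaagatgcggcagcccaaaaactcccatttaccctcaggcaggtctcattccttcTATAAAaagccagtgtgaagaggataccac
Krt10 (chr11:99389365-99389464, - strand): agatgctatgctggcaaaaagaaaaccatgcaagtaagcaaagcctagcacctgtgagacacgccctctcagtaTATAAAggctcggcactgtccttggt
Lor (chr3:92083143-92083242, - strand): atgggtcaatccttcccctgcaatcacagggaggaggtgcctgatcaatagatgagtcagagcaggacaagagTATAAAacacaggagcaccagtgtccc
Krt5 (chr15:101712906-101713005, - strand): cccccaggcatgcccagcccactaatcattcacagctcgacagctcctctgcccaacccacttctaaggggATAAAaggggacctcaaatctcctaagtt
Rpl41 (chr10:128549169-128549268, - strand): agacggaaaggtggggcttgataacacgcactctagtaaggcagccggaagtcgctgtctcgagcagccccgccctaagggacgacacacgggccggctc
These windows lie upstream of the transcribed region and were not probed on the array. A match is a description of the letters and was not tested for binding.

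The 4 arrays differed in brightness. Background, the median raw signal of probes that were no brighter than the negative controls, was 156, 148, 153 and 145 in WT-NT replicates 1, 2, 3 and 4. The median signal over background of detected probes was 291, 229, 187 and 199 in the same order, and 8876, 8717, 8031 and 8219 probes were detected (8461 ± 401, mean ± s.d., n = 4). Replicate 1 was thus the brightest array and replicate 3 the dimmest by this median. Each array was scaled to a common median, and all signals below are these scaled values, in arbitrary units, given in the order of replicates 1, 2, 3 and 4. The median detected gene had a signal of 255, and 25.9% of detected genes had an s.d. below 0.2 on the log2 scale across the 4 cultures. Probes bind with different strength, so ranks order probe signals and not numbers of transcripts. At the last step of detection p inside the limit lay 32 probes with a median signal of 51.3, and 37 probes at the first step outside it had 48.8. *Igf1r*, just inside, had signals of 41.1, 67.6, 40.0 and 59.0, and *Mad1l1*, just outside, had 29.4, 29.96, 77.9 and 58.1.

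The markers named for the cell type were all detected in all 4 cultures. *Krt14*, the basal type I keratin, was the brightest gene of the array with signals of 43241, 51267, 60593 and 56424 (52881 ± 7473, mean ± s.d., n = 4). Its partner *Krt5* ranked 138 with 6661, 6979, 3714 and 4492. *Trp63*, which encodes the p63 transcription factor, ranked 495 with 3593, 1745, 1278 and 1246, and replicate 1 was above the other 3. For *Krt5* replicates 1 and 2 were above replicates 3 and 4. *Krt14* was lowest in replicate 1 only after scaling: its raw signals of 55776, 51924, 50050 and 49816 were highest there. With quantile normalization it was tied in replicates 1, 3 and 4 as the brightest gene of each array, and with neqc normalization these 3 lay within 0.01 of each other on the log2 scale. Replicate 2 was lowest in both. No order of the cultures is therefore read from *Krt14*.

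Keratins, ribosomal proteins and epidermal surface and protease genes filled the top of the list. *Krt17*, a keratin of hair follicle and of injured or cultured epidermis, came next with 39736, 51286, 55931 and 47322. The ribosomal stalk protein gene *Rplp1* followed with 41254, 39541, 53348 and 49849, and *Rpl41* with 33904, 32724, 33945 and 35728. Of the 30 brightest genes 9 encode cytosolic ribosomal proteins (*Rplp1*, *Rpl41*, *Rps20*, *Rpl10*, *Rpl38*, *Rpl9*, *Rps12*, *Rpl37* and *Rpl31*) and 10 belong to the epidermal lists. Those on the epidermal lists were *Krt14*, *Krt17*, *Lgals3*, *Cstb*, *Dmkn*, *S100a11*, *Klk6*, *Krtdap*, *Klk7* and *Cnfn*. These lists were made by hand and are not limited to genes restricted to epidermis. Among the 100 brightest, 28 were cytosolic ribosomal genes, 19 were on the epidermal lists and 30 were in none of the lists.

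**Figure D1:**
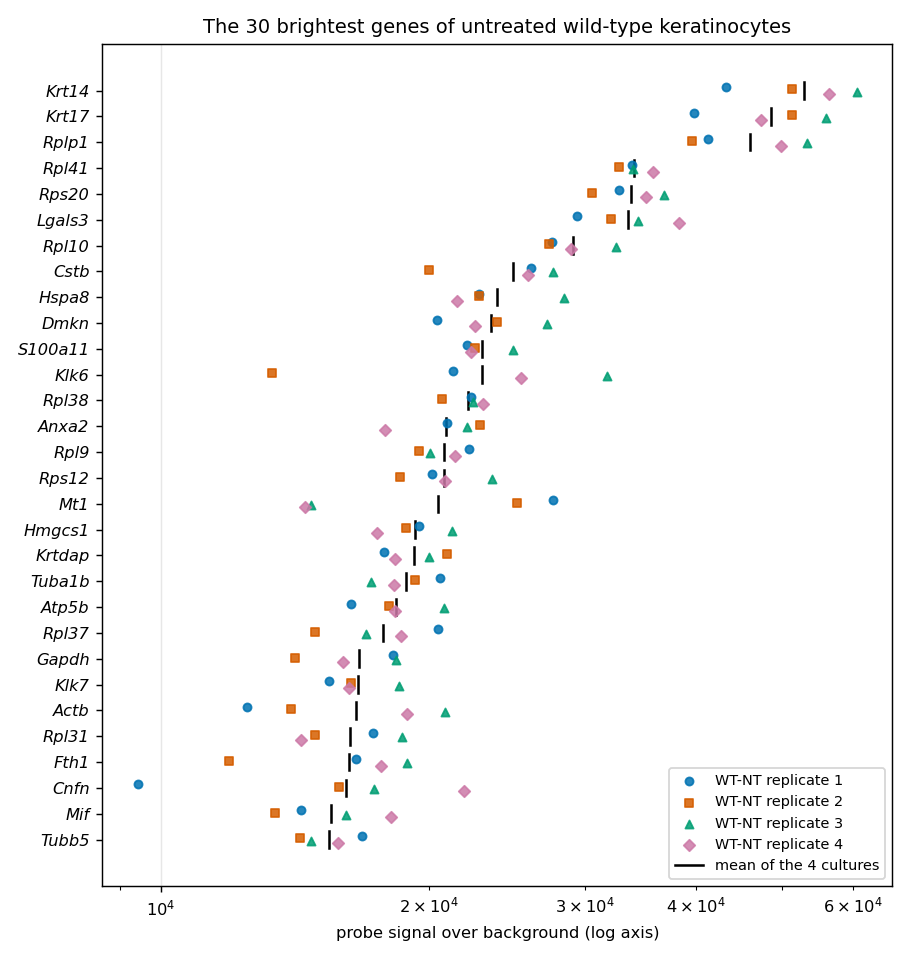
The 30 genes with the highest mean signal, brightest at the top, by signal over background on a log axis. Each symbol is 1 of the 4 cultures and the black bar is their mean; *Krt14* leads with 43241 to 60593, and *Klk6*, *Mt1* and *Cnfn* show the widest spread of the 30.

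*Lgals3*, which encodes the glycan-binding protein galectin-3, had 29399, 32096, 34411 and 38285. *Dmkn*, the secreted dermokine of differentiating epidermis, had 20422, 23895, 27192 and 22542. *Krtdap*, which encodes a small secreted protein of differentiating keratinocytes, had 17794, 20952, 19992 and 18350.3. On the brightest probe all 3 varied little, with a ratio of the highest to the lowest culture of 1.30, 1.33 and 1.18. Another *Dmkn* probe had a ratio of 1.22. A much dimmer *Dmkn* probe had 212.5, 328, 65.7 and 134, a ratio of 5.00, and was lowest in replicate 3. The cathepsin inhibitor gene *Cstb* had 26069.8, 20039.7, 27580.3 and 25872. The calcium-binding protein genes *S100a11* and *Anxa2* had 22066, 22567, 24893 and 22334, and 20983, 22827, 22102 and 17850.4. Of the 2 kallikrein proteases in the group, *Klk6* differed between cultures (21314, 13339.9, 31759 and 25398) more than *Klk7* (15436, 16369, 18501 and 16249), which cleaves desmosomes at the skin surface. *Cnfn*, which encodes the envelope component cornifelin, had 9425, 15853, 17362 and 21926 and was lowest in replicate 1.

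Housekeeping genes made up most of the rest. The chaperone *Hspa8* had 22795, 22801, 28409 and 21499, the glycolytic enzyme *Gapdh* 18256, 14155, 18361 and 16011 and the tubulin *Tuba1b* 20569.6, 19296, 17237 and 18298. *Atp5b*, a subunit of the mitochondrial ATP synthase, had 16354, 18028, 20794 and 18323. *Actb* and *Fth1*, for actin and the ferritin heavy chain, had 12489, 13995, 20837 and 18892, and 16570.2, 11919, 18904 and 17655. For the metal-binding *Mt1* replicates 1 and 2 stood well above replicates 3 and 4 (27621, 25151, 14746 and 14518). *Tuba1b* had the same split with a smaller gap. *Hmgcs1*, an early enzyme of cholesterol synthesis, had 19522, 18873, 21234 and 17499, and *Tubb5* and the cytokine gene *Mif* completed the 30 (*Mif*, 14374, 13422, 16162 and 18159.9). Spread fell with brightness. The median s.d. of log2 signal was 0.17 in these 30, 0.22 in the brightest of 5 equal bins of genes and 0.36 in the dimmest bin.

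Among the 44 gene lists the share of members detected on all 4 arrays ran from 0% to 87.5%, beside 31.3% of all genes on the array. The 8 epidermal lists together hold 181 genes with a probe, of which 121 (66.9%) were detected on all 4 arrays, 27 on 1 to 3 and 33 on none. Non-detection by a probe is not absence of the transcript. Probes of some genes that every cell uses were also at background: *Eef1a1*, the main translation elongation factor, had signals of -2.30, 19.4, -6.25 and -2.38, and *Cfl1*, for the actin-severing cofilin, had -15.8, -17.3, -21.7 and -26.7. *Actg1*, *Pgk1*, *Canx*, *Rpl6*, *Rpl14*, *Rplp2* and *Rpsa* were likewise not detected on any array.

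**Figure D2:**
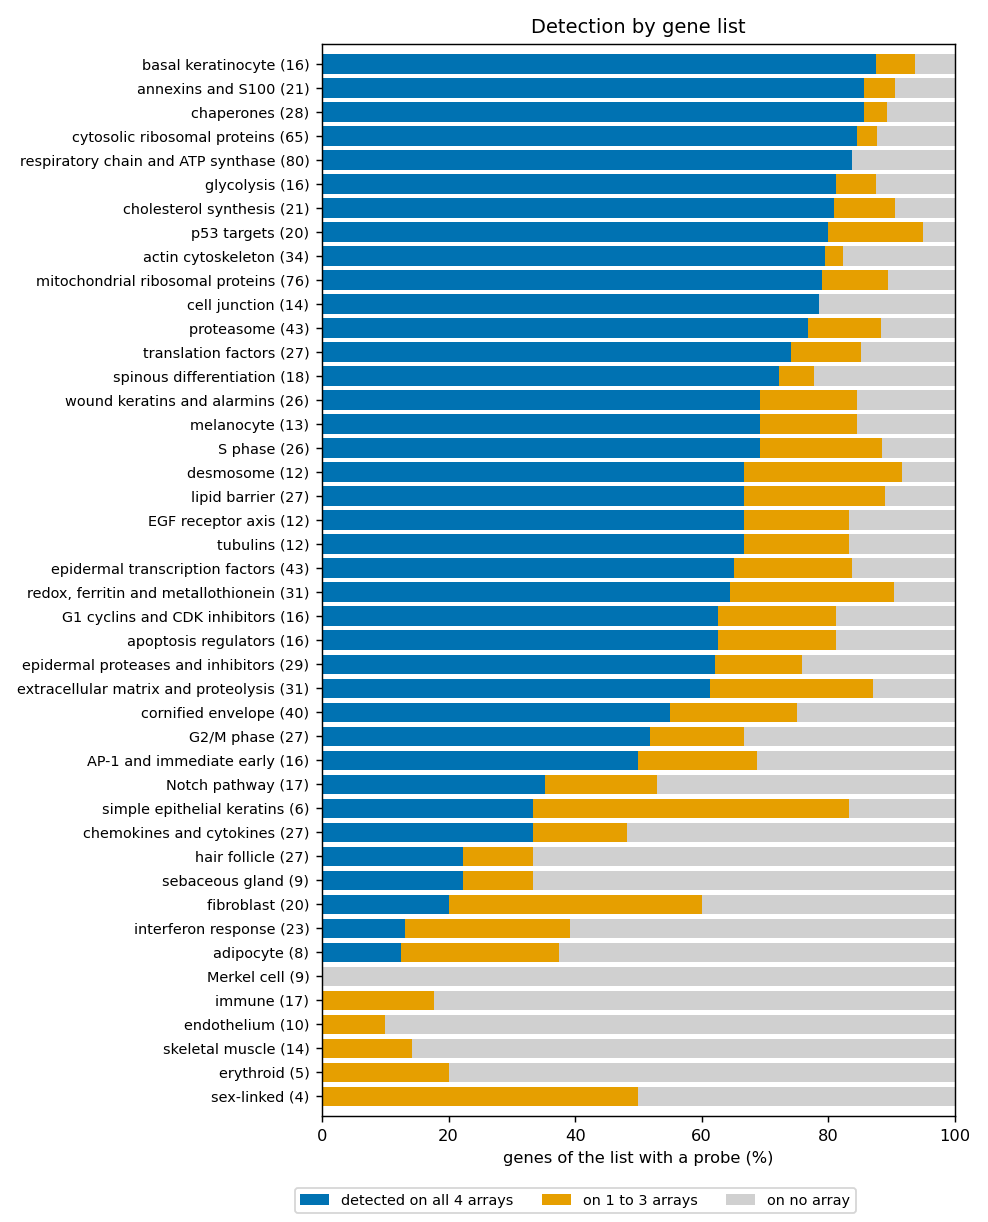
Share of the genes of each list that were detected on all 4 arrays (blue), on 1 to 3 (orange) and on none (grey), in percent of the genes with a probe, whose number stands in brackets. Basal keratinocyte genes lead with 87.5%, and the lists for immune cells, endothelium, skeletal muscle, erythroid cells, Merkel cells and sex-linked genes are at 0%.

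The basal list had 14 of 16 genes detected on all arrays, with a median signal of 1134. After the keratins the brightest was *Col17a1*, a transmembrane collagen of the hemidesmosome, with 5661, 3518, 2940.2 and 2742. *Itgb4*, the integrin that binds laminin-332 in the same structure, had 3264, 2439.9, 2938 and 2495. Its partner *Itga6* ranked only 3642, with 203, 109, 119 and 104. The laminin chain gene *Lamb3*, *Itga3*, *Itgb1*, *Plec*, *Dst*, *Cd151*, *Cdh3* and *Bcam* were all detected, and *Itga2* was detected on 2 arrays. *Krt15*, a keratin of resting basal cells and of the hair follicle bulge, was at background in each culture (6.82, 9.84, -0.178 and 1.58).

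The junction genes of the epidermis were mostly present. Of 14 adherens, tight and gap junction genes with a probe 11 were detected, led by *Ctnna1* (α-catenin) with 9577, 8918, 9473 and 9161. The tight junction gene *Cldn4* had 5059, 5666, 7375 and 6023. *Cdh1*, for E-cadherin, had 2209, 2345, 1543 and 1935, and *Ctnnb1* and *Cldn1* were also among the brighter ones. *Ctnnd1*, *Gjb5* and *Cldn7* were not detected. Among 12 desmosome genes 8 were detected, with a lower median signal (348). The plakophilin *Pkp1* had 2882, 2545, 1706 and 2135, *Dsg3*, the desmoglein of the lower layers, had 475, 585, 768 and 631, and *Ppl* and *Dsc3* were next in brightness. *Dsg1a*, the desmoglein of the upper layers, was not detected, and *Dsc1*, its desmocollin counterpart, was detected on 3 arrays.

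The spinous program was split. The secreted and small proteins of the list were bright: besides *Lgals3*, *Dmkn* and *Krtdap*, *Ly6g6c*, a lymphocyte antigen 6 family gene, ranked 46 with 11738, 11388, 11625 and 10994. In all, 13 of 18 genes were detected on all arrays. The suprabasal keratins were not bright. *Krt1* (-1.39, -0.295, -14.0 and -11.3) and *Krt2* (8.13, 9.26, 12.3 and 6.71) were at background, as were *Krt77* and the calmodulin-like gene *Calml3*. *Krt10*, the partner of keratin 1, was detected in all cultures at rank 1017 with 861, 1834, 519 and 529, and replicate 2 was highest.

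The cornified envelope list held both bright and undetected genes. Of 40 genes with a probe, 22 were detected on all arrays, 8 on some and 10 on none. The brightest after *Cnfn* were *Asprv1*, a protease that processes filaggrin, with 9586, 13771, 15523 and 12174, and *Sprr1b*, an early crosslinked envelope protein, with 10127, 11557, 8657 and 10355. *Cdsn*, corneodesmosin of the upper desmosome, had 8275, 13332, 9384 and 9068. *Lor*, for loricrin, the main protein of the mature envelope, ranked 707 with 522, 2692, 1257 and 1047, and replicate 2 stood above the others. *Casp14*, a caspase of terminal differentiation, had 1782, 3658, 3373 and 3199.9. *Lce1f*, the brightest of the late cornified envelope genes, had 367, 1528, 2427 and 1009.6. The late genes *Flg2* (-10.3, 2.31, -5.49 and 1.66), *Rptn* and *Tgm3* were at background, as were *Sprr2b*, *Sprr2i*, *Sprr3*, *Lce1e*, *Lce1h*, *Lce1l* and *Lce3a*. Involucrin (*Ivl*), an early envelope protein, was detected on 2 arrays only (62.3, 35.3, 14.9 and 23.1), and *Hrnr* on 1. *Tgm1*, the membrane transglutaminase that crosslinks the envelope, was detected at rank 3484 with 187, 226, 61.5 and 115. The *Sprr2* and *Lce* families and *Krt6a* and *Krt6b* hold near-identical copies, so the signal of 1 copy may include others.

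**Figure D3:**
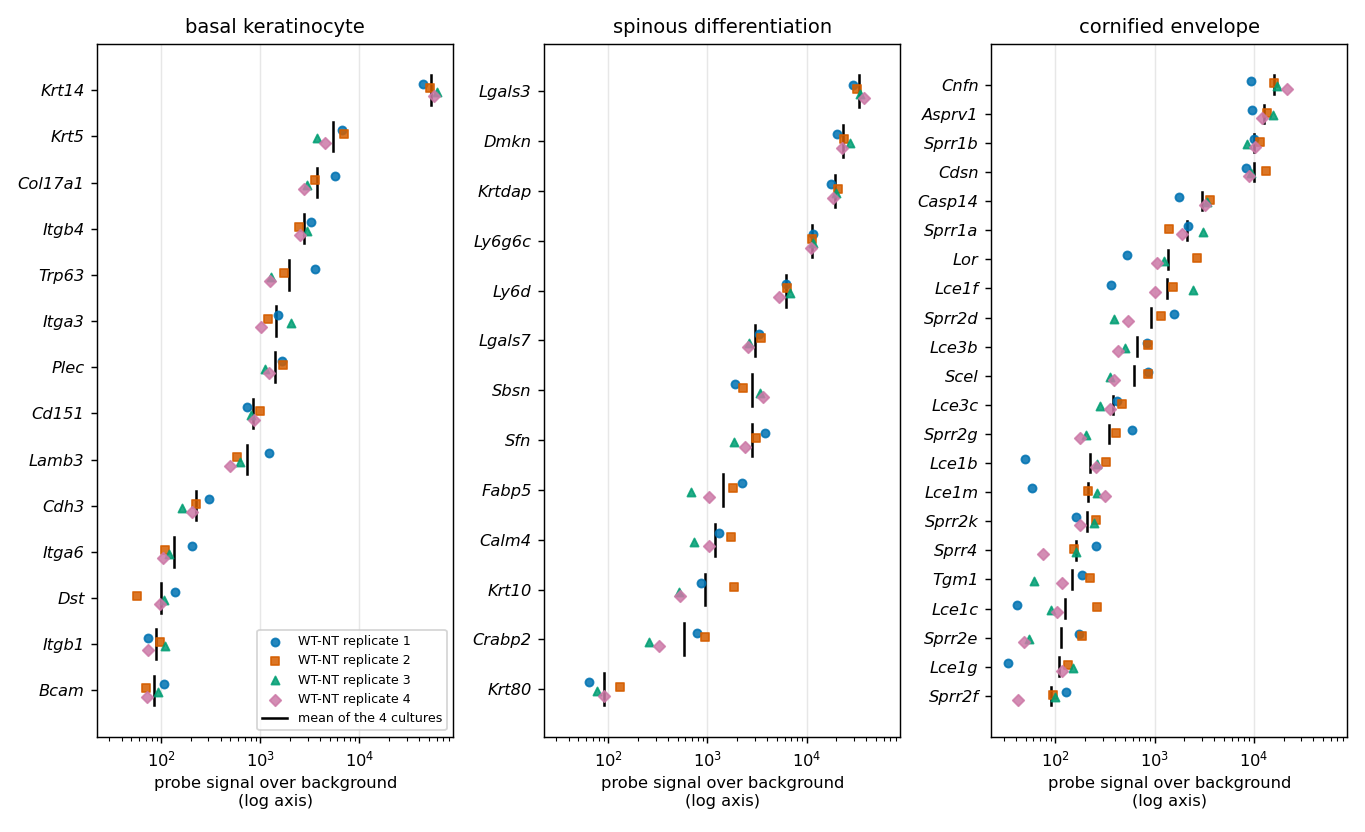
Signals of the detected genes of the basal, spinous and cornified envelope lists, sorted by mean, on a shared log axis. Symbols are the 4 cultures and the black bar their mean; the cornified list reaches from *Cnfn* (9425 to 21926) down to genes near the detection limit, and its cultures lie farther apart than those of the basal list.

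Genes for the lipid barrier were detected at moderate signals. Of 27 with a probe 18 were detected on all arrays, with a median of 328. *Degs1*, the ceramide desaturase, had 7075, 6101, 6949 and 5749.7, *Elovl4*, which extends very long chain fatty acids, had 3797, 4038, 3050.5 and 3056, and the glucosylceramide synthase gene *Ugcg* was next after *Cldn1*. *Abca12*, the lipid transporter of lamellar granules, ranked 5021 with 44.7, 68.4, 61.0 and 40.9, close to the limit. *Elovl7*, *Sptlc2* and *Lipk* were not detected. Proteases and their inhibitors, which control shedding of the surface, were brighter (median 1395, 18 of 29 detected, 5 among the 100 brightest). Besides *Cstb*, *Klk6* and *Klk7*, the kallikrein *Klk8* had 7691, 7537, 8850.4 and 7703, and *Ctsb* was also in this group. *Klk9*, *Klk14*, *Serpinb5*, *Serpinb8*, *Serpinb12*, *Csta1* and *Ctsd* were not detected on any array.

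Keratins and alarmins of wounded epidermis were prominent. Of 26 genes 18 were detected on all arrays and 4 were among the 100 brightest. *Krt6b* had 14358, 17003, 14472 and 14264 and *Krt6a* 1798, 1879, 1246 and 1059. *Krt16*, their partner, had 11022, 12320.3, 4205 and 5198, with replicates 1 and 2 both above replicates 3 and 4, the same split as for *Krt5*. *S100a8*, a subunit of the alarmin calprotectin, was highest in replicate 1 (6725, 3245, 3097 and 3185). *S100a10*, *S100a6*, *Il18* and the defensin *Defb1* were detected, while *Krt75*, *Lcn2*, *Camp* and *Il1f9* were not. Among 21 annexin and S100 genes 18 were detected (median 1040), led by *S100a11* and *Anxa2* and then *Anxa3* and *S100a8*.

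Transcriptional regulators had moderate probe signals. The list of epidermal transcription factors had 28 of 43 genes detected, with a median of 314 and none among the 100 brightest. *Cebpb*, a regulator of early differentiation, led with 6081, 6251, 6170.4 and 7151, followed by *Trp63*, *Klf3* and *Klf5* (934, 1513, 1627 and 1453). *Grhl3* was detected on 3 arrays, and *Cebpa*, *Maf*, *Ehf*, *Id3*, *Prdm1*, *Pou2f3* and *Hopx* on none. Of 17 Notch pathway genes, which drive exit from the basal layer, 6 were detected on all arrays. The feedback gene *Nrarp* had 1857, 1557, 873 and 1054, the receptor *Notch1* had 354, 329, 315 and 335, and the ligands *Jag1* and *Jag2*, *Notch3* and the target *Hes1* were the others. *Egfr*, for the EGF receptor, which keeps keratinocytes growing, had 927, 1003, 1175 and 927. Its feedback inhibitor *Errfi1* had 3703, 4441, 3716 and 4611, the ligand *Epgn* and the ligand-shedding protease *Adam17* were detected, and 8 of 12 genes of this axis were detected in all. The ligand genes *Tgfa* and *Egf* were not detected. Of 16 AP-1 and immediate early genes 8 were detected, led by *Ier3* (2505, 3731, 4332 and 4449.7), *Egr2*, *Klf6* and *Junb*, and *Fosb*, *Jund*, *Egr3*, *Ier2* and *Nr4a1* were not.

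Matrix and matrix protease genes were detected for 19 of 31, with a median of 294. *Timp3*, an inhibitor of matrix proteases, was the brightest (2983, 8932, 4492 and 5176) and was highest in replicate 2, followed by *Serpinb2*, *Ccn2* and *Mmp13*. Chemokine and cytokine genes were detected for 9 of 27, led by *Cxcl16* (1181, 1201, 1693 and 1329), *Cxcl14* and *Il24* (545, 212, 569.7 and 209.7). For *Il24* replicates 1 and 3 stood above replicates 2 and 4. *Il6*, *Tnf*, *Csf2*, *Cxcl2* and *Cxcl10* were not detected. Interferon response genes were detected for 3 of 23, the antigen presentation genes *B2m* (2287, 1702, 2356 and 2313) and *H2-D1* and the antiviral *Ifitm3*. *Mx1*, *Mx2*, *Irf7*, *Rsad2* and *Oasl2* were not detected.

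The cultures carried cycling genes at moderate levels. Of 26 S phase genes 18 were detected on all arrays (median 232), led by the replicative helicase subunit *Mcm4* with 3019, 2218, 2269 and 2075 and then *Uhrf1*, *Mcm5* and *Fen1*. For G2/M it was 14 of 27 (median 250), led by *Cenpa*, the centromeric histone, with 1777, 1253, 1244 and 1595, and then *Prc1*, *Cdc20* and *Cdk1*. The cyclin *Ccnd1* of the G1 phase had 2989.6, 1723, 2315 and 2033, and the list of G1 cyclins and CDK inhibitors had 10 of 16 detected, with *Cdk2* and *Ccnd2* next. *Cdkn1a*, the CDK inhibitor p21, was the brightest of that list and of the 16 detected p53 targets (of 20), with 3169, 4848, 4948 and 4731. It was lowest in replicate 1 on the scaled arrays. *Sfn*, *Ccng1* and *Mdm2* followed. Of 16 apoptosis regulators 10 were detected with a low median (193), led by *Mcl1* (766, 978, 770.5 and 449.7), *Diablo*, *Bcl2l1* and *Apaf1*.

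Protein synthesis and energy metabolism dominated the rest. Cytosolic ribosomal protein genes were detected for 55 of 65, at a median of 7074 and a median rank of 100, and mitochondrial ones for 60 of 76 at a median of 403, led by *Mrpl33*, *Mrpl20*, *Mrps24* and *Mrpl28*. Translation factors had 20 of 27 detected (median 4071), led by *Eef1g* (9373, 9421, 6477 and 9102), *Eif4a1*, *Npm1* and *Btf3*. Respiratory chain and ATP synthase genes had 67 of 80 detected (median 1372), with *Atp5b*, *Atp5g3*, *Uqcr10* and *Ndufa4* brightest. Several of the 13 that were not detected are muscle or testis forms such as *Cox6a2*, *Cox7a1* and *Cox8c*. Glycolysis had 13 of 16 (median 1692; *Gapdh*, *Tpi1*, *Ldha*, *Pkm*), the proteasome 33 of 43 (median 1496; *Psma2* had 8868, 7636, 12932 and 10358, then *Psmb4*, *Psmc2* and *Psma5*) and chaperones 24 of 28 (median 1602; *Hspa8*, *Hspa9*, *P4hb*, *Cct6a*). Tubulins had 8 of 12 (median 2990; *Tuba1b*, *Tubb5*, *Tubb2b*, *Tubb4b*) and the actin cytoskeleton 27 of 34 (median 1404; *Actb*, *Arpc5*, *Tmsb10*, *Myl6*). Cholesterol synthesis had 17 of 21 (median 1124; *Hmgcs1*, *Fdps*, *Acly*, *Cyp51*), and redox, ferritin and metallothionein genes 20 of 31 (median 346; *Mt1*, *Fth1*, *Prdx1*, *Gpx1*).

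Markers of the other cell types of skin were read on the same arrays. Of 13 melanocyte genes 9 were detected on all arrays. *Tyrp1*, a melanosome enzyme, ranked 76 with 6304, 11656, 7675 and 8179, *Dct* had 1525, 3559, 1460.0 and 2753 and the melanosome matrix gene *Pmel* 914, 2661, 1293 and 2160.3, and *Gpnmb* and *Mlana* followed. *Tyr*, the first enzyme of melanin synthesis, was detected on 2 arrays, and *Gpr143* and *Slc24a5* on none. All 3 *Tyrp1* probes were detected on all arrays and were highest in replicate 2. Of 20 fibroblast genes 4 were detected on all arrays: *Sparc* (308, 612, 429 and 514), *Vim* (161, 230.4, 69.2 and 144), *Col5a1* and *Col6a1*. At a detection p of 0.05 or less it was 8. The defining collagen genes were near or under the limit, with *Col3a1* on 3 arrays, *Col1a1* on 1 and *Col1a2* on none, as were *Pdgfra* and *Lum*. In bulk samples such as these, fewer cells of a type and less RNA per cell cannot be told apart.

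No gene of the immune list (17 with a probe), endothelium (10), skeletal muscle (14), erythroid cells (5) or Merkel cells (9) was detected on all 4 arrays. Of these lists 3, 1, 2, 1 and 0 genes were detected on 1 to 3 arrays. At a detection p of 0.05 or less, 2 immune genes and 1 endothelial gene were detected on all 4. Hair follicle genes were detected for 6 of 27, among them the keratin *Krt79* (1608, 683, 427 and 444), *Sox21*, *Gata3* and *Sox9*, while the hair keratins *Krt25*, *Krt27*, *Krt71*, *Krt31*, *Krt35* and *Krt86* and the stem cell genes *Lgr5* and *Cd34* were on none. The sebaceous list had *Scd1* (1088, 1433, 1385 and 1588) and *Plin2* of 9, and the adipocyte list *Lpl* (713, 241, 538 and 378) of 8. Of 6 simple epithelial keratins *Krt23* and *Krt18* (38.7, 35.6, 125 and 53.6) were detected on all arrays, and *Krt7*, *Krt8* and *Krt19* on some. The sexes of the pups are not given in the labels. *Kdm5d*, on the Y chromosome, was detected in 2 cultures (58.7, 45.5, -2.78 and 12.96), and the brighter of 2 *Xist* probes in 3 (27.9, -12.3, 131 and 62.6), while *Eif2s3y* and *Uty* were at background in all. These signals lie near the limit.

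The 4 cultures were compared in pairs. Over the detected probes the pairs of arrays had correlations (Pearson's r, across probes, which share arrays and are not independent) of 0.94 to 0.97, lowest for replicates 1 and 3 and highest for replicates 3 and 4. The correlations draw on the wide range of brightness between genes, and no other group was set beside them. Between 192 (2.76%, replicates 3 and 4) and 826 probes (11.9%, replicates 1 and 3) were at least 2-fold apart. The median gene had an s.d. of 0.29 on the log2 scale, and the quantiles 0.1 and 0.9 were 0.13 and 0.57. An s.d. of 1 or more was seen in 56 genes, 30 of them at or above the median signal. Replicate 1 was the most distinct: among the 2595 genes at or above the median signal, 49 were at least 2-fold above the mean of the other 3 cultures and 57 as far below it. For replicate 2 it was 28 and 18 genes, for replicate 3 it was 30 and 39, and for replicate 4 it was 7 and 10.

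The most variable gene was *Mmp13*, a collagenase of wound-edge keratinocytes, with 2606, 74.98, 174 and 182, a ratio of 34.8 between the highest and the lowest culture (s.d. 2.22 on the log2 scale). This rests on 1 probe, as its other 2 were detected only in replicate 1. *Gjb2*, for the gap junction protein connexin 26, had 1275, 251, 67.6 and 106, and its second probe gave 1133, 187, 55.9 and 36.9. *Ifitm3* (1259.6, 176, 237 and 171) and the defensin *Defb6* (1797, 300.0, 366 and 271) were also several times higher in replicate 1 than in any other culture. *Pdpn*, the podoplanin of migrating keratinocytes, was highest in replicate 1 and lowest in replicate 2 (799, 67.1, 220.1 and 203), as were the chemokine *Cxcl1* and the protease *Mmp3* (545, 97.1, 291 and 281).

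Other genes were dimmest in replicate 1. *Mal* (62.7, 306, 522 and 301), the tight junction gene *Cldn3* (87.1, 251, 743 and 471), *Upk1b* (107, 991, 364 and 543), *Igfbp5* and *Aif1l* (154, 423, 1006 and 1163) were lowest there. *Acta2*, for smooth muscle actin, was lowest in replicate 1 and highest in replicate 2 (328, 2301, 857 and 1503), and its second probe kept that order with 47.7, 331, 168 and 232. *Arg1*, the urea cycle enzyme that marks upper epidermis, was highest in replicate 2 (805, 2296, 488 and 715), as were *Mab21l4* and *Lgalsl*. *H1f2*, a linker histone gene, was lowest in replicate 2 (4155, 2662, 9104 and 7679.9). The stress regulator *Ddit3* (115, 194, 621 and 319.9), *Serpina11*, *Slco4a1* and *Lce1f* were highest in replicate 3.

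A further set divided replicates 1 and 2 from replicates 3 and 4. The placental prolactin-family gene *Prl2c4* had 905, 555, 119 and 130.3, and *Prl2c3*, a close relative whose transcripts a probe may share, ran the same way. *Dusp6*, a feedback phosphatase of ERK signalling, had 556, 481, 309 and 175, and *Mgst3* was likewise lower in replicates 3 and 4. *Ptpn14*, *Slc23a3* and *Dusp4* ran the other way. *Zfp750*, a regulator of terminal differentiation (515, 532, 117 and 302), *Ednrb*, an endothelin receptor that is also on the melanocyte list (621, 780.0, 157 and 314), and *Abhd16a* were lowest in replicate 3. In replicate 4 the highest deviations were those of *Aif1l*, *Akr1c18*, *Trp53inp1* (154, 181, 382 and 492), *Slc23a3* and *Gadd45g*.

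**Figure D4:**
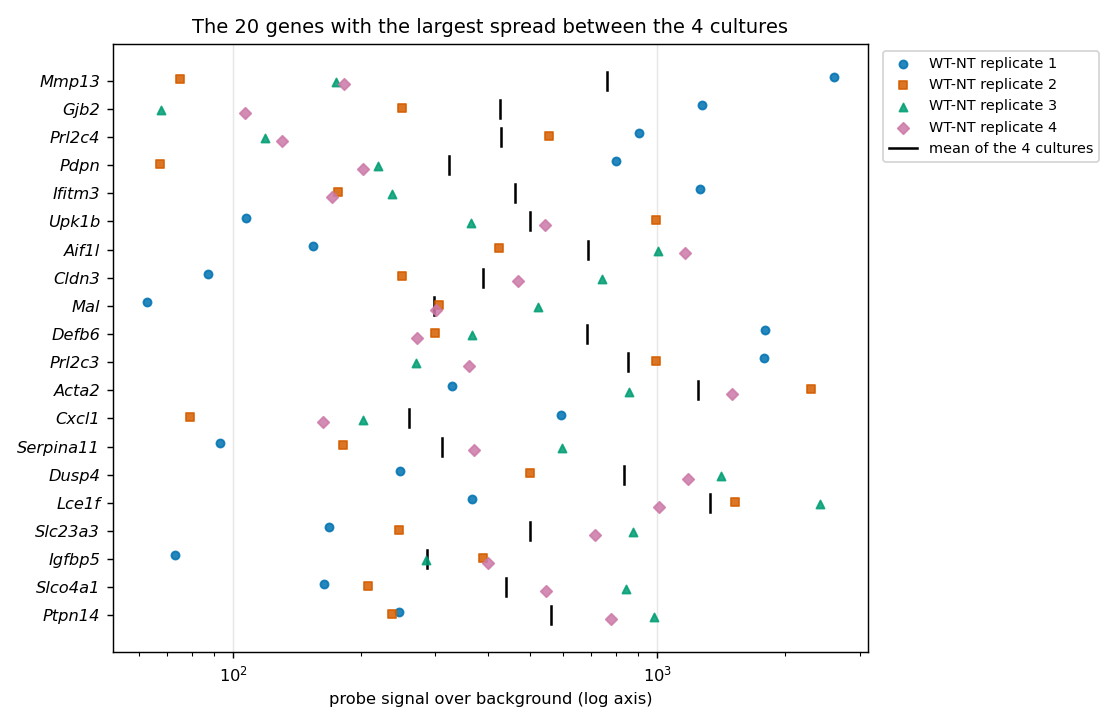
The 20 genes with the largest s.d. of log2 signal among those at or above the median signal, most variable at the top, on a log axis. Symbols are the 4 cultures and the black bar their mean, and *Mmp13* spans 74.98 to 2606. Replicate 1 (circles) is the highest or the lowest for 19 of the 20. Of all 5190 detected genes, 1455 were highest and 1505 lowest in replicate 1. The 20 were picked by a spread that includes replicate 1, so the 19 are not an independent count.

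Second probes gave a check that does not depend on a single probe, though both were read on the same array and from the same RNA. For 1071 genes with at least 2 detected probes, the deviations of the 4 cultures on the brightest and the second probe had r = 0.47 across genes, and the same culture was highest in 46.0%. For the 108 of them with the largest s.d. r was 0.71, with the same highest culture in 62.0% and the same lowest in 68.5%. Of the 10 genes most variable on the second probe, *Acta2*, *Ddit3*, *Dusp6*, *Gjb2*, *Mmp3* and *Palmd* had the same highest culture on both. For *Myl12b*, *Pmp22*, *Rab7* and *Usp1* the highest culture differed between the 2 probes.

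Whole lists also differed between cultures. Of 18 detected S phase genes 13 were highest in replicate 1, and of 14 G2/M genes 12 were, beside 28.0% of all detected genes. The median deviation there from each gene's own mean was 0.35 and 0.42 on the log2 scale. The p53 targets were lowest in replicate 1 for 10 of 16 genes (median deviation -0.36), beside 1505 of all 5190 genes, but without scaling the arrays this median was 0.021. Basal genes were highest in replicate 1 for 8 of 14 (0.34), as were Notch genes for 5 of 6 (0.21) and hair follicle genes for 4 of 6 (0.78). These 3 counts were 12 of 14, 6 of 6 and 5 of 6 without scaling the arrays, beside 69.2% of all genes. The summed signal of the basal genes on the scaled arrays was 68374, 70978, 76635 and 71531. Most of it came from *Krt14*, whose order of the cultures depended on the scaling, so no order is read from this sum.

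Differentiation genes were highest in replicate 2 more often than genes in general, to an extent that varied with the scaling. Cornified envelope genes were highest there for 11 of 22 (median deviation 0.43), lipid barrier genes for 10 of 18 (0.22) and spinous genes for 6 of 13 (0.21), beside 22.0% of all genes. Without scaling the arrays these counts were 8 of 22, 8 of 18 and 3 of 13, beside 820 of all 5190 genes, while 11, 9 and 9 were highest in replicate 1, beside 69.2%. Most of the 22 cornified genes are *Sprr* or *Lce* genes, whose copies may share signal, so they are not independent counts. Of the brightest on the scaled arrays, *Sprr1b* and *Cdsn* were highest in replicate 2, *Asprv1* in replicate 3 and *Cnfn* in replicate 4. The summed signal of the spinous genes on the scaled arrays was 99804, 109935, 110113 and 107058, about level in replicates 2 and 3. On these arrays 2 of the 13 genes were highest in replicate 3 and 5 were lowest there. With quantile or neqc normalization none was highest in replicate 3 and 7 were lowest there. Highest in replicate 2 were also 7 of 9 melanocyte genes (0.55) and 4 of 4 fibroblast genes (0.59). The summed signal of the 9 melanocyte genes was 11285, 21893, 12471 and 16497, and that of the 4 fibroblast genes was 659, 1223, 715 and 922. The part of these other cells in the differentiation genes was not tested. Ribosomal protein genes were lowest in replicate 2 for 32 of 55 (-0.12) and respiratory chain genes for 33 of 67 (-0.09), beside 25.8% of all genes. Without scaling the arrays 12 of 55 and 10 of 67 were lowest in replicate 2, beside 19.3% of all genes, so no order of the cultures is read from these lists.

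**Figure D5:**
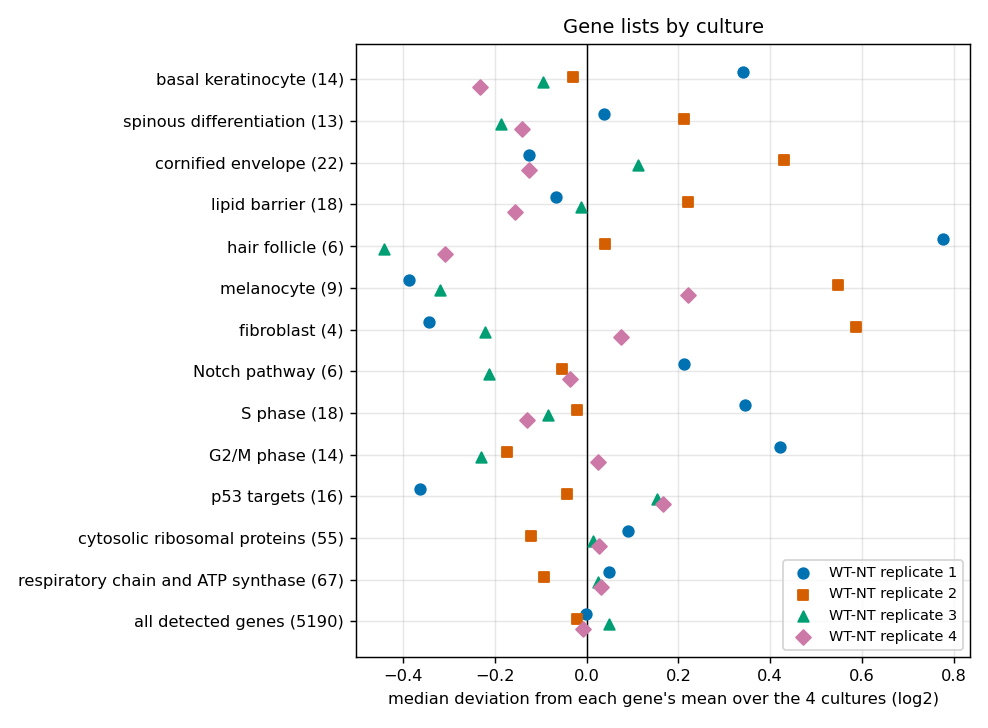
Median deviation, on the log2 scale, of the detected genes of each list from their own mean over the 4 cultures, with the number of genes in brackets. Symbols are the cultures; replicate 1 lies to the right for S phase (0.35) and G2/M (0.42) and to the left for p53 targets (-0.36), and replicate 2 to the right for cornified, melanocyte and fibroblast genes.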

How the data were processed

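RNA of keratinocytes was hybridised by the authors to MouseRef-8 v2.0 bead arrays in 1 color, 1 array per culture. The deposited raw table holds an intensity for each of 25697 probes on each array, with a detection p-value that the authors took from negative control probes. Steps in p imply 798 of these control probes, fewer than the number given in the study's methods. The authors also deposited log2 values normalized with vsn, used here only as an alternative; no deposited column was left unmapped. The scanner software, the slides and the versions of vsn and limma were not given in the sources used here.

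The 4 WT-NT arrays were used. Background (the median raw intensity of probes with p from 0.45 to 0.55) was subtracted, and each array was scaled to a common median over probes detected (p of 0.01 or less) on all 4. A gene took its brightest detected probe. Spread is the s.d. of log2 signal centred on the array median. The number of arrays limits the precision. Of the probes, 23978 have 1 gene symbol, none has several and 1719 carry no symbol, so that they enter no gene count. Python 3.11.15 (pandas 2.3.3, numpy 2.4.6) and R 4.3.3 with limma 3.58.1 (neqc, offset 16) were used. The code was tested on simulated data.

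The members and lists were chosen with earlier results of these data known. Named are the 30 brightest genes, *Krt5*, *Krt14* and *Trp63*, up to 4 of the brightest members of each list, undetected epidermal genes, the 20 genes of largest spread at or above the median signal, 10 by their second probe, for each array the 5 genes farthest above and the 5 farthest below the other 3, sex-linked genes and probes at the limit. Other undetected or partly detected list members were named after their values were seen. The 4 ribosomal, respiratory and proteasome lists were built from gene symbols and the other 40 by hand. Alternatives changed the detection limit, background, scaling, normalization, probe summary and the arrays included.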

Additional observations from a re-analysis of the deposited data

Results flagged for a closer look

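Of 94 detected genes given by culture, 9 had 1 culture set apart by a gap that, as a share of the whole log2 range, was above Dixon's critical value for 4 samples. Chance flags about 1 in 20 groups, and 4.86% of all genes at or above the median signal met it. Many of the 94 were named for their spread. Replicate 1 stood apart in 4 of the 9. It was high for *Ifitm3* (1260, against 171 to 237 in the other 3 cultures), for the defensin *Defb6* (1797, against 271 to 366) and for the alarmin *S100a8* (6725, against 3097 to 3245). It was low for the CDK inhibitor *Cdkn1a* (3169, against 4731 to 4948). Replicate 2 was high for *Krt6b* (17003, against 14264 to 14472) and low for *B2m* (1702, against 2287 to 2356). Replicate 3 was high for the kallikrein *Klk8* (8850, against 7537 to 7703) and low for the elongation factor *Eef1g* (6477, against 9102 to 9421). Replicate 4 was high for *Cebpb* (7151, against 6081 to 6251). How many stood apart depended on the scaling: the same criterion was met by 4 of the 9 with quantile normalization, 4 with neqc, 5 with the authors' vsn values, 3 with no background subtracted and 3 without scaling, where the culture apart for *Cdkn1a* was replicate 2, on the high side. *Klk8*, *Krt6b* and *Cebpb* met it in none of these. The 30 brightest genes as a set lay 0.15 above their own means in replicate 3 on the log2 scale. This was 0.14 with the authors' vsn values, 0.04 with no background subtracted and 0.03 with quantile or neqc normalization.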

How the results depend on the processing

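Each alternative changed 1 choice, except that neqc and the authors' vsn values replace background correction and scaling together. Of 74 summary values (probes, genes and epidermal genes detected or not, the brightest genes and the median spread), 72 stayed within 1.5 times those reported, and the other 2 were both of the median spread. That spread, an s.d. of 0.29 on the log2 scale, was 0.18 with no background subtracted and 0.16 with the authors' vsn values; the cause was not tested. It was 0.25 to 0.30 when 1 culture was left out. Probes detected on all arrays numbered 7739 at a p of 0.05 and 6585 at 0.005, and 23 and 39 of the epidermal genes were then detected on no array. Of the 100 brightest genes 84 remained when all detected probes of a gene were averaged, and 96 to 100 under the other alternatives. Detected members of a single list moved further in 8 of 308 values: simple epithelial keratins from 2 to 4 in 3 settings, sex-linked genes from 0 to 1 in 2, and, at a p of 0.05, fibroblast genes from 4 to 8, immune genes from 0 to 2 and endothelial genes from 0 to 1. Among all values of single genes and lists, 968 of 1064 counted as unchanged. For counts and spreads this meant staying within 1.5 times those reported. For percentiles of signal and list medians it meant a shift no larger than their s.d. between cultures, and for list medians also the same sign. The p53 target median in replicate 1 became 0.021 without scaling, where the median of all genes in that array moved by 0.38. The cornified envelope median in replicate 1, -0.12, became 0.00071 with no background subtracted and 0.26 without scaling. Ribosomal genes lowest in replicate 2 numbered 19 to 32 of 55 across the scaled alternatives and 12 without scaling. Leaving out replicate 1 moved the spread of 13 of the 20 most variable genes by over 1.5 times, and *Mmp13* had 0.72. With the authors' vsn values 10 of the 20 moved that far, to between 0.55 and 1.14. With no background subtracted it was 7, to between 0.65 and 1.24. Signal over background limits what can be said below the detection limit. No paired analysis was possible because only 1 group of arrays was used.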

Other observations

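Of the 6962 probes detected on all 4 arrays 413 carry no gene symbol in the annotation used here, and 4 of the 15 brightest probes are among them. The brightest unnamed probe had signals of 34925, 37552, 42809 and 39381 in replicates 1, 2, 3 and 4. The next had 28458, 28286, 32115 and 30369. They belong to no gene list and to no count of genes above.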
